A study of Mus musculus with 2 samples.

Results

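Tbr1, Fezf2, Bcl11b, Sox5, Tle4, Foxp1 and Foxp2 encode transcriptional regulators used to tell apart the deep-layer projection neurons of the cerebral cortex, and their 7 loci were examined among 21911 protein-coding genes. A locus was the GENCODE gene body with 10 kb on either side, and a promoter window reached 500 bp to each side of an annotated start site. The members were listed by name, not by any measured value, though earlier results of these data were known when they were chosen. Chromatin accessibility was mapped by DNase-seq, in which DNase I cuts nucleosome-free DNA, in left cerebral cortex. The mice were females, 2 months old, of the B6CASTF1/J cross (F1 hybrids between the C57BL/6J and CAST/EiJ strains), with no other allele and no treatment in the labels. There were 2 libraries, replicate 1 from the female numbered 5 and replicate 2 from the female numbered 6. Both carry the same donor entry, so the spread between them covers these libraries only, and with a single group no conditions could be compared.

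In the developing cortex, corticothalamic neurons of layer 6 are specified by Tbr1, a T-box factor, with Sox5, and they express Foxp2 and the co-repressor Tle4. Subcerebral neurons of layer 5 depend on the zinc finger factor Fezf2, which acts upstream of Bcl11b, also called Ctip2. Some of these factors repress one another's programmes, and several stay expressed in subsets of adult neurons. Accessible promoters and distal elements are the stretches where such genes are contacted by transcription factors. The tissue here was whole cortex, so a lower signal from fewer cells of a type and a weaker signal within each cell cannot be told apart.

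The libraries were of similar depth. Read as a single cut, the step between signal values gave totals of 206 and 208 M cuts for replicates 1 and 2, and the authors called 128323 and 119651 peaks and 340109 and 284674 footprints. Excitatory neuron markers had a promoter peak in both libraries in 7 of 7 genes, whereas lymphocyte markers, which would stand for blood cells that use Bcl11b, had one in 1 of 8 (Lck). Striatal projection neuron genes, whose cells also express Bcl11b, Foxp1, Foxp2 and Tle4, had one in 12 of 13, with Six3 lacking it, at a median signal of 1.42. Drd2, Tac1 and Isl1, which define striatal neurons, stood at mean signals of 0.415, 0.35 and 0.594. The part of such cells in the values below was not tested.

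All 7 genes had a promoter peak in both libraries, as did 64.4% of protein-coding genes, but at low signal. The signal is the authors' read-depth normalized cut density at the peak, and for a gene the strongest peak over its windows was taken. Of the members, 6 lay between 0.724 (Fezf2) and 1.65 (Foxp1), below the median of 2.93 over the 14103 genes with such a peak, and Tle4 alone was above it at 7.57. The median of the 7 was 1.28. In order of mean signal the genes were Tle4, Foxp1, Bcl11b, Sox5, Tbr1, Foxp2 and Fezf2. Sox5 differed from Bcl11b and from Tbr1 by less than the spread of Sox5, and Tbr1 from Foxp2 by less than the spread of Tbr1.

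**Figure D1:**
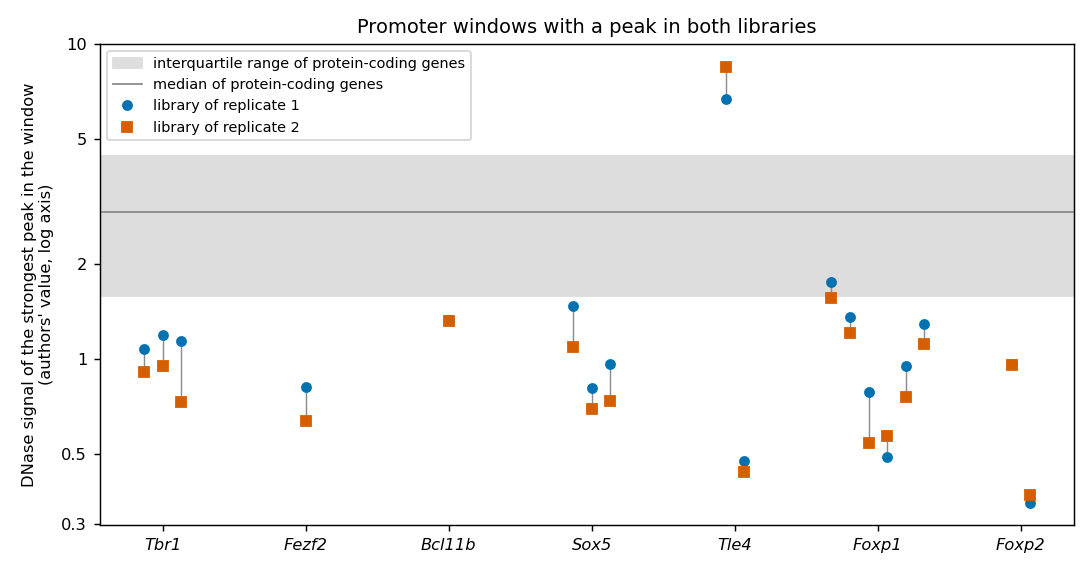
Signal (log axis, authors' read-depth normalized value) of the strongest peak in each promoter window with a peak in both libraries, by gene, one point per library joined by a line. Windows of a gene run from the outermost 5′ end inward from left to right. The grey band and line give the interquartile range and the median of protein-coding genes with a promoter peak in both libraries (1.58 to 4.4, median 2.93). The first Tle4 window lies above the band, and 6 genes lie at or below its lower edge in at least 1 library.

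Tbr1 (ENSMUSG00000035033.15, chr2:61802930-61814114, mm10, plus strand) was the most densely accessible of the 7. The highest promoter signal was 1.19 in replicate 1 and 0.951 in replicate 2, a mean of 1.07 ± 0.17 (SD, n = 2), at percentile 15.6 of genes with a promoter peak. Replicate 1 was the higher in all 3 windows, with 1.08 against 0.912 at the first and 1.14 against 0.73 at the innermost. The base pairs with a significant cut rate, listed by the authors at a false discovery rate (FDR) below 0.05, made up 28% of the locus in replicate 1 and 25.8% in replicate 2, against medians over all genes of 3.06% and 2.67%. So the promoter was weak beside other promoters, while the whole locus was open over far more of its length than most.

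Distal peaks were those whose centre lay more than 1 kb from every annotated start site, and shared peaks were those that overlapped by at least 1 bp between the libraries. Tbr1 held 8 distal shared peaks, more than any of the 200 protein-coding genes nearest to it in locus length. Of these, 4 lay on exons, 2 in introns and 2 downstream of the gene, and none upstream. The widest, chr2:61811241-61812600, covered 1360 bp of the last part of the gene with 106.6 CpG per kb and signals of 1.35 and 0.965. Over all distal shared peaks the median width was 235 bp and the median CpG density 16.7 per kb, so the Tbr1 peak was wide and CpG-rich. The next by mean signal, chr2:61807081-61807640, lay on an exon with signals of 1.33 and 0.778. A promoter peak of 1720 bp, chr2:61804181-61805900, covered the start site of the second window, and the innermost window had no start site inside a peak. The 2 peaks found in 1 library alone were both of replicate 2, the stronger with a signal of 0.538.

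The strongest distal peak of Tbr1 lay 3′ of the gene, at chr2:61815541-61816080, with signals of 1.18 and 1.22. Its central 300 bases (chr2:61815661-61815960, plus strand, GRCm38) are given here because they hold a footprint of both libraries over a NEUROD-type E-box. Footprints are short stretches protected from DNase I within accessible DNA, called by the authors at an FDR of 0.01. Capitals mark the bases inside footprints of both libraries, 21 in all, and the stretch holds 28 CpG dinucleotides.
Tbr1 downstream peak: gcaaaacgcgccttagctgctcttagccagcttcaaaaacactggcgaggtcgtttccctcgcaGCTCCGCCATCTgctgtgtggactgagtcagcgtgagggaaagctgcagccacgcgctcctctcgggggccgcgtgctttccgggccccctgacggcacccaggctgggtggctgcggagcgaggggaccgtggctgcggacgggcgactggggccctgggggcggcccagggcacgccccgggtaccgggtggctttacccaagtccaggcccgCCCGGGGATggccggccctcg
The first capital run overlaps a match to CAGATGG, the E-box bound by NEUROD factors of excitatory neurons, which reads CCATCTG on this strand. A match to the AP-1 motif TGANTCA, close by on its 3′ side, lay outside the footprints of both libraries. Like all sequence given here, it is that of the C57BL/6J reference, and the CAST/EiJ copy was not examined.

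Fezf2 (ENSMUSG00000021743.6, chr14:12342094-12348189, minus strand) had the lowest promoter signal, 0.814 in replicate 1 and 0.634 in replicate 2 (mean 0.724 ± 0.127, SD, n = 2, percentile 8.8). It came from a window 2.23 kb inside the annotated gene that holds 2 start sites. The window at the outermost GENCODE start, the end of 1 transcript, had no peak and no listed base pair in either library, and the RefSeq gene begins 1386 bp further in, at position 12346803. Shared peaks at Fezf2 thus began inside the outermost annotated transcript.

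Fezf2 held 4 distal shared peaks (percentile 96.8), 2 in introns and 2 downstream of the GENCODE gene, and the downstream pair lies within the longer RefSeq gene, which ends at position 12338992. Signals of the distal peaks ran from 0.431 to 0.77 in replicate 1 and from 0.408 to 0.634 in replicate 2, against medians of all distal shared peaks of 0.649 and 0.682. In replicate 2 all 4 lay below the median. The highest by mean signal were chr14:12340961-12341792 (0.756 and 0.634), chr14:12340441-12340780 (0.77 and 0.423) and chr14:12343561-12344000 (0.547 and 0.418). All 7 shared peaks of the locus were higher in replicate 1, and 20.8% of it was listed in replicate 1 against 11.4% in replicate 2. Peaks of 1 library alone numbered 7 in replicate 1, the strongest at 0.572, and 4 in replicate 2, the strongest at 0.48. None of the distal peaks was in the authors' smaller, stricter list in both libraries, and on that list Fezf2 had 0 distal shared peaks. The high count for its length therefore rests on weak peaks.

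Bcl11b (ENSMUSG00000048251.15, chr12:107910403-108003602, minus strand) had the lowest share of peaks found in both libraries, 28%. Its promoter peak, chr12:108003902-108004320, had signals of 1.33 and 1.32 (mean 1.32 ± 0.0047, SD, n = 2, percentile 20.5). The peak covers no GENCODE start site but does cover the RefSeq 5′ end at position 108004145, 543 bp upstream. A further peak lay 2.8 kb upstream of the gene, at chr12:108006221-108006582, with signals of 1.16 and 1.18, and in the 3′ part of the gene the intronic peak chr12:107931041-107931340 had 1.07 and 0.98. These sites had nearly equal signal in both libraries.

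The strongest distal peak of all 7 loci lay in a Bcl11b intron 4.7 kb from the 5′ end, at chr12:107998861-107999040, with signals of 2.5 in replicate 1 and 3.29 in replicate 2. It stood at percentile 97.3 of distal shared peaks by mean signal, and was the only 1 of the 64 distal peaks of the 7 loci at or above the 90th. The whole peak of 180 bases is given (minus strand, GRCm38) because more of its bases, 53, lie in footprints of both libraries than in any other distal peak shown. Capitals mark those bases.
Bcl11b intronic peak: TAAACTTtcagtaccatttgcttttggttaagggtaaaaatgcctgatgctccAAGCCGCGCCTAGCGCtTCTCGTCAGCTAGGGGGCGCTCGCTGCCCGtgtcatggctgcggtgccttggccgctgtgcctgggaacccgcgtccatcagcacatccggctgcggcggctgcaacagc
The long central runs of capitals are rich in G and C and hold no exact match to the motifs searched. Throughout, a match had to meet every position of a consensus, so near matches, also to the CTCF motif, were not counted.

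Of 25 merged peaks at Bcl11b, 7 were shared, 17 were found in replicate 1 alone and 1 in replicate 2 alone. The replicate 1 peaks had signals between 0.295 and 0.698, and at 16 of the 17 no base pair was listed in replicate 2. The single peak of replicate 2 alone had a signal of 0.653. The listed share of the locus was 5.82% in replicate 1 and 1.56% in replicate 2. With replicate 1 alone the gene held 23 distal peaks (percentile 99.0), with replicate 2 alone 7 (percentile 75.2), and with shared peaks 6 (percentile 82.0). The cause of the difference was not tested.

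Sox5 (ENSMUSG00000041540.16, chr6:143828425-144781977, minus strand), an SRY-box factor that times the migration and identity of deep-layer neurons, is the longest of the 7 genes at 953.6 kb. Its outermost promoter window had signals of 1.47 and 1.09 (mean 1.28 ± 0.267, SD, n = 2, percentile 19.8). A second group of start sites opened 572.4 kb inside the gene, with 0.809 and 0.696, and another at 577.5 kb, with 0.964 and 0.735. The window at 834.9 kb, which holds 4 start sites, had no peak and no listed base pair in either library. The start sites of Sox5 were therefore open at the outer end and in the middle of the gene, and not at the innermost.

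Sox5 held 28 distal shared peaks (percentile 85.5), 27 in introns and 1 on an exon. In relation to its length this was 2.88 per 100 kb, against 25.7 at Tbr1. They were individually modest, with a median of 0.53 in replicate 1 and 0.454 in replicate 2. The 3 highest by mean signal were chr6:144452741-144452940 with 0.761 and 0.96, chr6:144181170-144181415 with 0.906 and 0.754, and chr6:144154881-144155376 with 0.911 and 0.672. The strongest peaks of 1 library alone reached 0.698 in replicate 1 and 0.466 in replicate 2. Many of the shared peaks lay 3′ of the middle start sites, as the plot of peaks along the loci shows.

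Tle4 (ENSMUSG00000024642.17, chr19:14448150-14598051, minus strand), a Groucho-family co-repressor without DNA binding of its own, had the reverse pattern of Tbr1. Its promoter signal was 6.7 in replicate 1 and 8.43 in replicate 2 (mean 7.57 ± 1.22, SD, n = 2), at percentile 98.7. It held no distal shared peak (percentile 4.0), and 1.55% and 1.84% of the locus was listed. The lowest FDR of the cut rate in the window was 4.11e-59 and 9.04e-121, while no window of the other 6 genes went below 6.84e-15. A CpG-dense peak 0.7 kb inside the gene (signals 1.4 and 1.21) and an internal start site at 2.51 kb (0.475 and 0.437) made up the other shared peaks. Of the 2 peaks in replicate 2 alone, the stronger had a signal of 0.379.

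The family shared the strong promoter in part. Tle1 had promoter signals of 6.56 and 8.17 and Tle3 of 4.64 and 6.15, but Tle2 of 1.61 and 1.26. The 300 bases upstream of the RefSeq start of Tle4 (chr19:14598184-14598483, minus strand, GRCm38) are given because this peak holds the most bases in footprints of both libraries among the sequences shown, 91, marked by capitals.
Tle4 promoter: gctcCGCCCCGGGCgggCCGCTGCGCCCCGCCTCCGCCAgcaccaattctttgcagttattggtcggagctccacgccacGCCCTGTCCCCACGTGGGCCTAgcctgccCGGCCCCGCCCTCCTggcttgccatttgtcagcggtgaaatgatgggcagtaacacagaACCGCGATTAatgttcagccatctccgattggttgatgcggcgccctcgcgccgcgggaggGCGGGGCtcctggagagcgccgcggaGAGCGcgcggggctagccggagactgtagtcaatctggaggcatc
Several capital runs hold GC-rich stretches, and none of the motifs searched matched in this window.

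Foxp1 (ENSMUSG00000030067.17, chr6:98925338-99522721, minus strand), a forkhead factor of projection neurons in both deep and upper layers, had the most start sites, 22 in 13 windows. Peaks were found in both libraries in 6 of them, with signals of 1.75 and 1.56 at the outermost (mean 1.65 ± 0.133, SD, n = 2, percentile 26.5). The other 5 open windows lay at 1.56, 256.2, 426.5, 478.3 and 493.8 kb, and the strongest of those far inside the gene, at 493.8 kb, had 1.29 and 1.12. The values were 1.36 and 1.21 at 1.56 kb, 0.785 and 0.543 at 256.2 kb, 0.489 and 0.571 at 426.5 kb, and 0.949 and 0.759 at 478.3 kb. The other 7 windows held no listed base pair in either library. A peak 37.2 kb inside the gene (chr6:99485141-99485840, signals 1.43 and 1.02) lay within 1 kb of a start site of another annotated gene, 35.5 kb from the nearest of Foxp1.

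Foxp1 held 14 distal shared peaks (percentile 66.0), all in introns. Replicate 1 alone gave 31 and replicate 2 alone 22, and the stricter peak list left 4 shared peaks, at percentile 46.5. The strongest, chr6:99079101-99079480, had signals of 1.4 and 1.58 (percentile 85.5 of distal shared peaks), 16.9 kb from the nearest start site of Foxp1 and 3.23 kb from that of another annotated gene. Next came chr6:99295541-99296042 with 0.804 and 0.85 and chr6:99166181-99166560 with 0.838 and 0.759. Peaks of 1 library alone reached 0.809 in replicate 1 and 0.792 in replicate 2. Its central 300 bases (chr6:99079141-99079440, minus strand, GRCm38) are given as the second strongest distal peak of the 7 loci, with capitals for the 22 bases in footprints of both libraries.
Foxp1 intronic peak: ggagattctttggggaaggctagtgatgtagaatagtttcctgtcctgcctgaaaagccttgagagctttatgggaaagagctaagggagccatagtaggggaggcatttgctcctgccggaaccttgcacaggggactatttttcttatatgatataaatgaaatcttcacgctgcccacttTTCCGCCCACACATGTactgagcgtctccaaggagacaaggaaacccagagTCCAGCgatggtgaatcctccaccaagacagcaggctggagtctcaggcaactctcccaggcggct
None of the motifs searched matched in it. The gene overlaps a second protein-coding annotation, Gm20696, so its peaks cannot be assigned to Foxp1 alone.

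Foxp2 (ENSMUSG00000029563.16, chr6:14901349-15441977, plus strand), a forkhead factor of layer 6 neurons, had the smallest listed share of its locus in both libraries, 0.726% in replicate 1 and 0.853% in replicate 2. The promoter signal was 0.964 in replicate 1 and 0.96 in replicate 2 (mean 0.962 ± 0.00248, SD, n = 2, percentile 13.5). It held 4 distal shared peaks (percentile 14.0) over a locus of 560.6 kb, 0.713 per 100 kb, and their signals ran from 0.276 to 0.368 in replicate 1 and from 0.288 to 0.403 in replicate 2. All 4 lay below the medians of distal shared peaks. The highest were chr6:14898201-14898760, 2.9 kb upstream of the gene, chr6:15257521-15257720 with 0.344 and 0.317, and chr6:15310701-15310917 with 0.276 and 0.307. Peaks of 1 library alone reached 0.31 in replicate 1 and 0.413 in replicate 2. Of its 7 promoter windows, 2 were open in both libraries, 2 in replicate 1 alone (0.247 and 0.242) and 3 in neither. The window at 295.6 kb, open in both at 0.349 and 0.37, is an internal start.

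**Figure D2:**
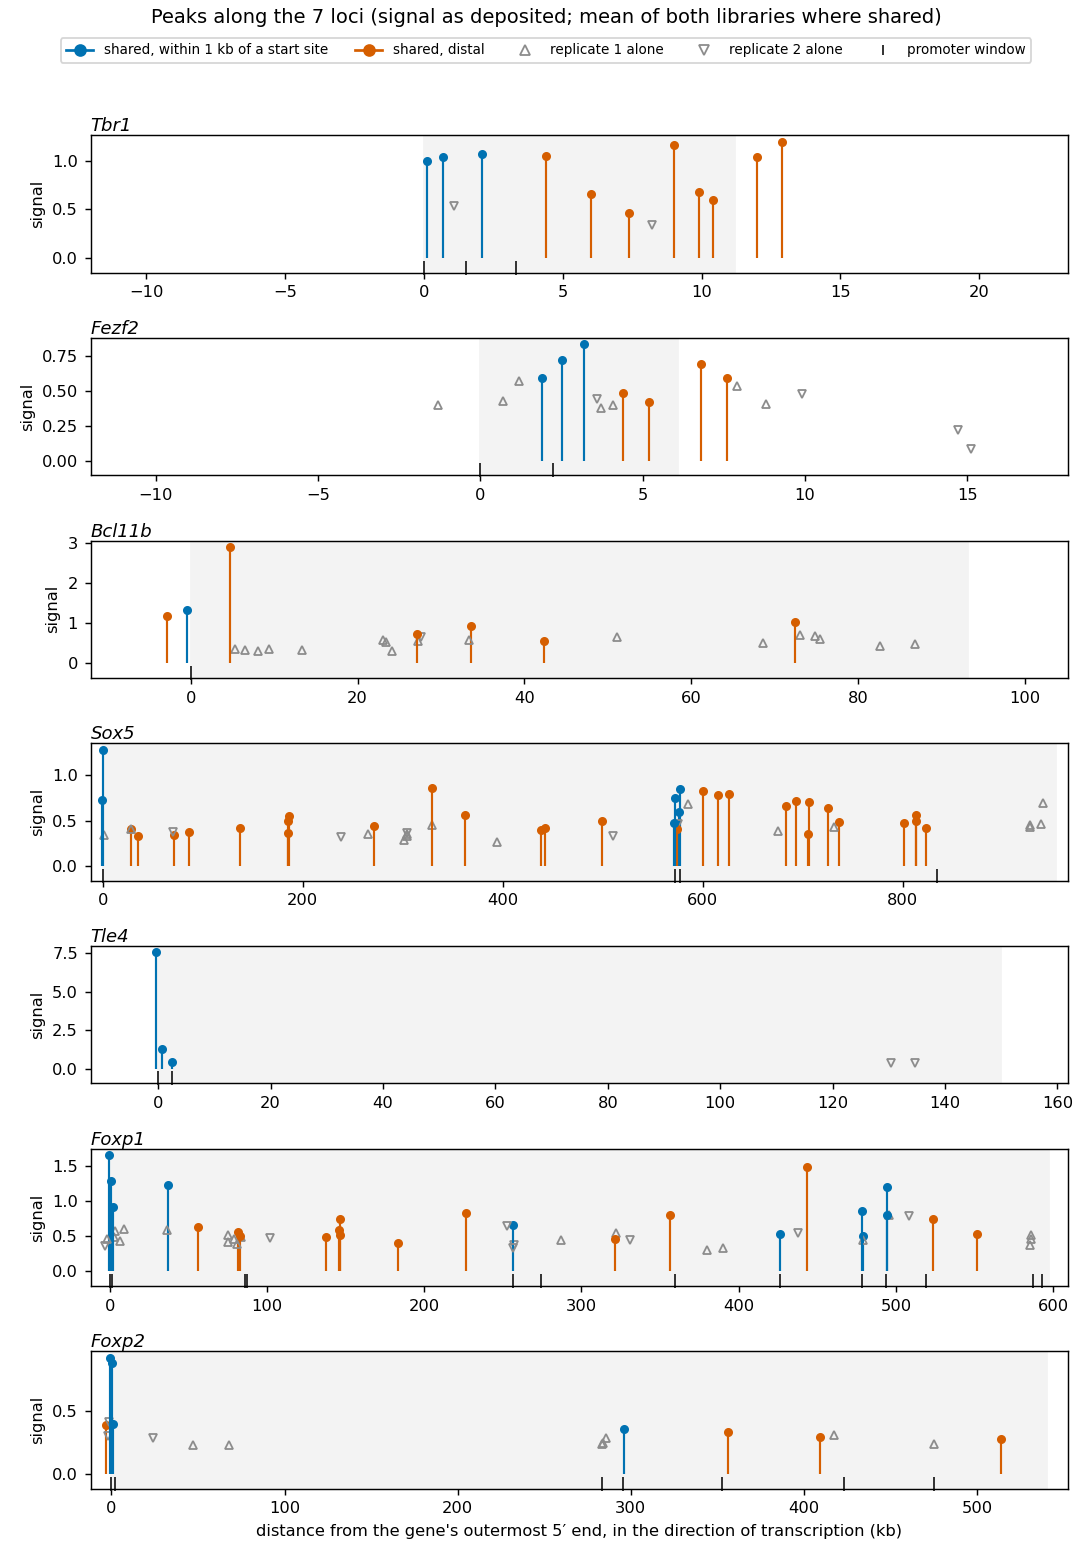
Peaks along each locus, by distance in kb from the gene's outermost 5′ end in the direction of transcription (x) and signal as deposited (y, scales differ between panels). Filled points on lines are shared peaks at their mean signal, open triangles are peaks of 1 library alone, ticks below 0 are promoter windows and the shaded part is the gene. Tbr1 is filled from end to end, Tle4 holds its only shared peaks near the start, and the open triangles of Bcl11b are nearly all of replicate 1.

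Counted over start sites, 18 of the 32 promoter windows (56.2%) had a peak in both libraries, against 34.8% of the windows of all protein-coding genes. The outermost window was open in 6 of 7 genes, all but Fezf2. Of the other 25 windows, 12 were open in both libraries and 11 in neither. A window without a peak was mostly silent also by the more permissive listing, since 11 of the 12 without any peak held no listed base pair.

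Distal shared peaks numbered 64 over the 7 loci, with a median of 6 per locus against 1 over all protein-coding genes, which are mostly shorter. Set against genes of similar locus length, 5 of the 7 stood at or above the 50th percentile, as did 46.6% of all genes, and 2 of the 7 (Tbr1 and Fezf2) at or above the 90th, as did 9.71%. Tbr1 stayed above the 90th under all 8 alternative settings tried, and Fezf2 under 6 of the 8. With a flank of 50 kb Fezf2 stood at percentile 77.8 and Tle4, with 5 distal peaks in place of none, at percentile 41.5.

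**Figure D3:**
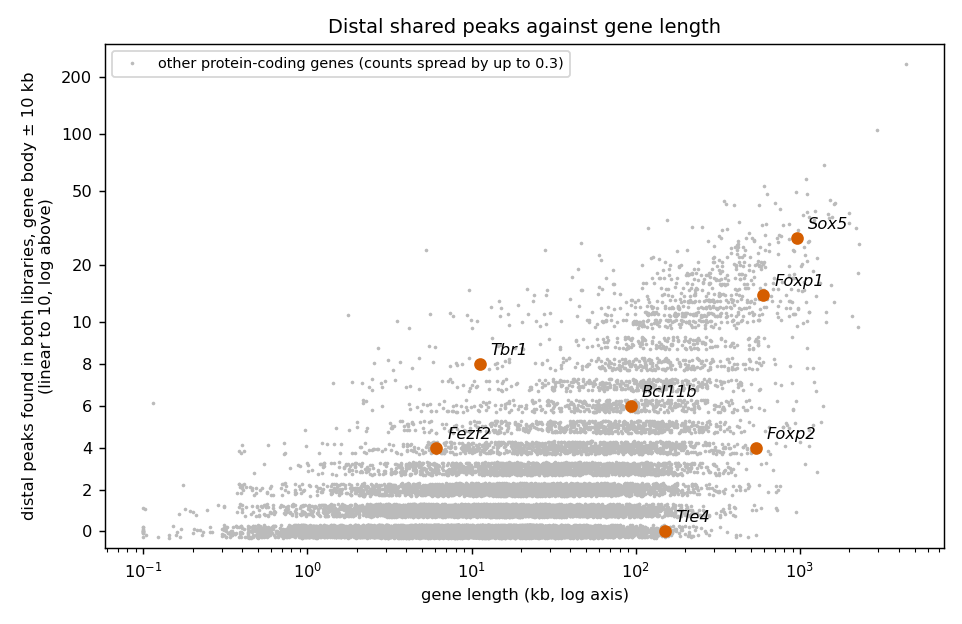
Distal peaks found in both libraries per gene (y, linear up to 10 and log above) against gene length (x, kb, log axis) for protein-coding genes (grey, counts spread at random by up to 0.3) and the 7 factors (orange). Tbr1 (8) and Fezf2 (4) lie at the upper edge for their length, Tle4 (0) and Foxp2 (4) at the lower.

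By signal the distal peaks of these loci were ordinary to weak. The median was 0.574 in replicate 1 and 0.521 in replicate 2, against 0.649 and 0.682 over all 53896 distal shared peaks, and 22 of the 64 stood at or above the middle of that distribution. Of the 64, 53 lay in introns and 5 on exons. CpG density was above the overall median of 16.7 per kb at each locus with distal peaks, with medians between 19.5 (Foxp1) and 43.5 (Fezf2).

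Other genes named for deep layers, upper layers and related families gave a scale. Among 24 further deep-layer genes, 23 had a promoter peak in both libraries (Cplx3 lacked one) and the median distal percentile was 56, with Otx1 at 99.8, Bcl6 at 98.0 and Ndst4 at 3.5. Among 14 upper-layer factors, all had a promoter peak and the median percentile was 81.8. For the 7 factors the median percentile was 82, and over all protein-coding genes 45. By the median the 7 factors stood nearer to the upper-layer list than to the other deep-layer genes. Single factors ran from 4.0 (Tle4) to 100 (Tbr1). Lymphocyte markers, of which 1 of 8 had a promoter peak in both libraries, had a median of 63, also above those deep-layer genes. So did family members and partners (60.8) and striatal genes (57.5), while Purkinje and thalamic markers (49.5) stood below. Excitatory neuron markers, given below, had the highest median. Whether the count follows cell identity was not tested, and it is a description over few genes.

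Closer relatives did not follow a single pattern. Among 12 family members and partners, 11 had a promoter peak in both libraries, and Tbx21, the T-box factor of T cells, had none. Eomes, the T-box factor of intermediate progenitors, had promoter signals of 0.494 and 0.48, lower than those of Tbr1 in both libraries. Bcl11a had 1.41 and 1.6 with 3 distal peaks, and Fezf1 0.47 and 0.418 with none. Excitatory neuron markers had a median percentile of 98.2.

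**Figure D4:**
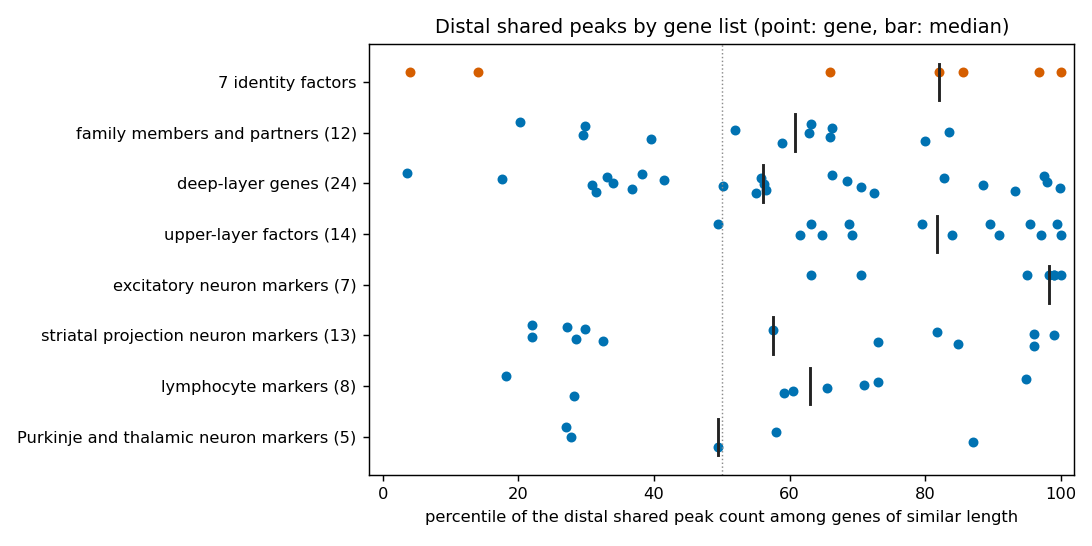
Percentile of the number of distal shared peaks of a gene among the 200 genes nearest to it in locus length (x), for the 7 factors (orange) and the comparison lists (blue, number of genes in brackets), one point per gene with a bar at the median. The 7 factors spread from 4.0 to 100, and the medians run from 49.5 for Purkinje and thalamic markers to 98.2 for excitatory neuron markers.

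Of 185 merged peaks at the 7 loci, 94 were shared (50.8%, against 51.6% over all peaks). A further 66 (35.7%) were found in replicate 1 alone and 25 (13.5%) in replicate 2 alone, against 27.4% and 21% over all peaks. Sharing ran from 28% at Bcl11b to 84.6% at Tbr1, where no peak was found in replicate 1 alone. Peaks of 1 library were weak, with median signals of 0.431 in replicate 1 and 0.379 in replicate 2. No base pair was listed in the other library at 60 of the 66 peaks of replicate 1 and at 16 of the 25 of replicate 2. The same values over all peaks of 1 library are not given here, so these need not be particular to the 7 loci.

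Shared peaks of these loci also leaned to replicate 1, with 64 of 94 (68.1%) higher there, against 39.4% over all shared peaks. The direction moved with width and signal over the whole data set. Among shared peaks of mean signal under 2, 33.5% of those narrower than 300 bp were higher in replicate 1, but 66.2% of those of 500 bp or more. The 7 loci held more wide peaks, 25.5% at 500 bp or more against 12.9%, and within the widths their shares were 60.5% of 43 peaks and 79.2% of 24. The 2 peaks of signal 2 or more, in Bcl11b and at the Tle4 promoter, were both higher in replicate 2. The part of width and of the library in this lean was not tested further.

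**Figure D5:**
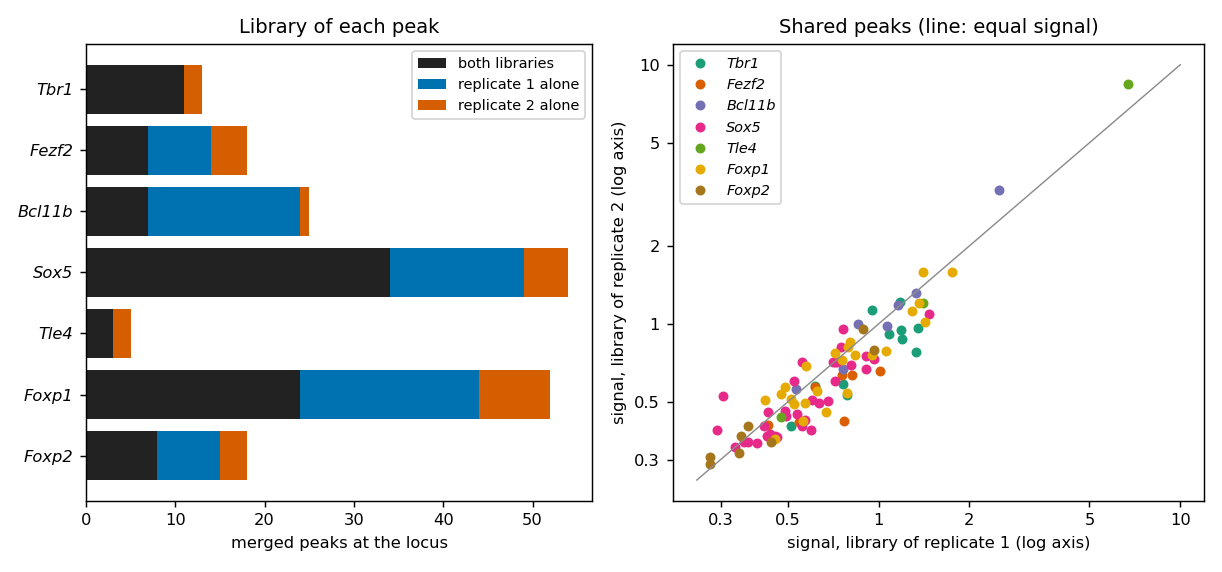
Left, number of merged peaks at each locus found in both libraries, in replicate 1 alone and in replicate 2 alone. Right, signal of the 94 shared peaks in replicate 1 (x) and replicate 2 (y), both on log axes, with a line of equal signal and a colour per gene. Bcl11b has 17 peaks of replicate 1 alone, and most points lie below the line except the 2 strongest.

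Footprints were somewhat sparser in these peaks and less often found in both libraries. Shared peaks of the 7 loci held 8.55 footprints per kb in replicate 1 and 7.65 in replicate 2 (mean 8.1 ± 0.635, SD, n = 2), against 10.2 and 9.18 over all shared peaks (9.67 ± 0.702). The means differed by more than either SD, and the ranges of the 2 libraries did not overlap. These SDs and ranges cover the libraries over the same peaks. They do not cover the spread between loci, whose means ran from 7.11 to 13.6. Tle4 had the highest density, 14.4 and 12.9, and Sox5 the lowest mean, 7.11 ± 0.0588. Of the 455 footprints in the loci in replicate 1, 21.1% overlapped a footprint of replicate 2, and of the 332 in replicate 2, 29.2% overlapped one of replicate 1, against 39.5% and 47% over all footprints. At Tle4 the share was 50% in both libraries, and at Fezf2 10.4% and 21.7%.

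Motifs of the T-box, FOX and SOX families, those of Tbr1, Foxp1, Foxp2 and Sox5, were rare here as they were over all distal shared peaks. No motif of Fezf2 or Bcl11b was searched. In windows of 150 bp at the centres of the 64 distal shared peaks, searched on both strands, the T-box motif GGTGTGA was found in 2 (3.12%, against 2.91% of all distal shared peaks), the FOX motif TGTTTAC in 0 (against 1.53%) and the SOX motif ACAATGG in 1 (1.56%, against 1.62%). By the limit of 3 counts, 0 of 64 allows a share of up to 4.69%, and the exact 95% binomial interval reaches 5.6%. Over the full width of the shared peaks there were 2, 6 and 7 matches to the 3 motifs, and no footprint of either library overlapped any of them. The share of such matches under footprints over all shared peaks is not given here, so nothing on occupancy is drawn from this. One T-box match lay in Tbr1 itself, in the intronic peak chr2:61810178-61810420, and the other in Sox5. Of the 7 SOX matches, 4 lay in Sox5, which also held 34 of the 94 shared peaks. That locus held 11 of the 16 AP-1 matches and 5 of the 11 NEUROD matches as well.

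Motifs of other factors were found in few windows, and those with a match stood within counting error of the overall share. The NEUROD motif was in 4 windows (6.25%, against 9.03%), all in Sox5, and the AP-1 motif in 8 (12.5%, against 9.46%), 5 of them in Sox5. The POU motif ATGCAAAT was in 2 (3.12%, against 0.866%) and the EGR motif GCGTGGGCG in 1 (1.56%, against 0.202%). The exact 95% binomial intervals were 1.73% to 15.2% for NEUROD and 5.55% to 23.2% for AP-1. For POU the interval was 0.381% to 10.8% and for EGR 0.0396% to 8.4%. Each held the overall share. No window held an exact match to the CTCF motif (against 7.8%), the MEF2 motif (2.17%), the RFX motif (0.592%) or the NFI motif (0.0612%). For 0 of 64 the interval reached 5.6%, below the overall CTCF share but above those of MEF2, RFX and NFI. Matches of different motifs overlapped at 0 places in these peaks, and a match is a description of sequence only. Over the full peaks, footprints of both libraries overlapped 2 of 11 NEUROD matches, at the downstream peak of Tbr1 and at chr6:144098201-144098480 in Sox5, and 1 of 16 AP-1 matches, in the Fezf2 peak chr14:12340961-12341792. For these motifs too, the shares over all shared peaks are not given here.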

How the data were processed

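The labels and the deposited library notes give mm10 and one library per animal, and no source used here gives the aligner or the callers. The authors deposited, per library, a larger and a smaller peak list whose signal is a read-depth normalized cut density, footprints with an FDR (q-value) of 0.01 throughout, and stretches of base pairs whose local cut rate has an FDR (adjusted p-value) below 0.05. Signal was a whole multiple of 1 step, within 0.05 of a step, for 100.0% of values, from which depth was read.

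From the larger list, peaks overlapping by at least 1 bp were merged. Each library's highest peak was taken per promoter window. Genes were GENCODE M21 protein-coding genes, and RefSeq of the same assembly (GRCm38.p6) gave other gene ends. Percentiles rank distal shared peak counts among the 200 genes of closest locus length. The text names all 7 genes, each open promoter window, the 3 distal shared peaks of highest mean signal per gene, the strongest peak of each library alone, and the sequences of 4 peaks picked after their footprints were seen. No test was made. One gene counted in the comparison lists is not reported here by itself. The members and lists were chosen with earlier results of these data known. Scripts, tested on simulated intervals, used Python 3.11.15, numpy 2.4.6 and pysam 0.24.0. Intervals and limits cover counting error only.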

Additional observations from a re-analysis of the deposited data

How the results depend on the processing

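No paired analysis was possible because all libraries belong to a single group. Promoter peaks were found at 7 of 7 genes under every alternative except the outermost 5′ end, which gave 6. The authors' smaller, stricter list gave a median of 3 distal peaks per locus (6 as reported), 1 gene at or above the 90th percentile (2 as reported), 10.9 footprints per kb (8.1 as reported) and 0 of 19 windows, 0%, for each of the T-box, SOX, EGR and POU motifs. A flank of 50 kb left 1 gene at or above the 90th percentile. Motif windows of 300 bp raised the NEUROD share to 17.2%. With each library left out in turn the median ran from 7 to 11 distal peaks, the latter without replicate 2, the genes at or above the 90th percentile from 2 to 3, and the footprint density from 8.95 to 9.23 per kb, since peaks of 1 library then count. The other summary values over the 7 loci stayed within 1.5 times, the counting interval or 1 SD of those reported, also when touching peaks were joined, an alternative chosen after the data were seen. Counts of single genes moved more. The stricter list left 4 distal peaks at Tbr1, 3 at Bcl11b, 8 at Sox5, 4 at Foxp1 and 0 at Fezf2 and Foxp2. The peaks of replicate 1 alone (without replicate 2) gave 11 at Tbr1, 10 at Fezf2, 23 at Bcl11b, 43 at Sox5, 0 at Tle4, 31 at Foxp1 and 9 at Foxp2, and those of replicate 2 alone 13, 7, 7, 35, 2, 22 and 7 in the same order. The cause of the differences was not tested. Depth was 206 and 208 M cuts.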

Other observations

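Beyond the flank of 10 kb the surroundings differed between the loci. Between 10 and 50 kb from the gene, Tle4 had 5 distal shared peaks, 2 upstream and 3 downstream, the strongest of which, chr19:14436081-14436340, had signals of 0.576 in replicate 1 and 0.672 in replicate 2. Fezf2 had 1 in that range, chr14:12296481-12296700, with signals of 1.36 and 1.56, higher than any shared peak within its own locus, and it lies among the neighbouring genes Cadps, 3830406C13Rik and Gm49355. Tbr1 and Foxp2 had none between 10 and 100 kb on either side. Foxp1 had 2 between 10 and 50 kb, both upstream, and 6 between 50 and 100 kb, 5 of them upstream.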
